A study of Mus musculus with 3 samples.

Results

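Chaperones fold proteins in the cytosol, the mitochondria and the endoplasmic reticulum (ER), and 32 genes of this machinery were followed in mouse leukaemia cells given either of 2 treatments. They were taken by name: 15 heat shock members (cytosolic and mitochondrial) and 17 ER members, out of 34827 gene names on the array. No cut on measured values made the list, but it was chosen with earlier results of these data known. Of the 32, 31 had a probe under their own name and 29 were well above background on all 3 arrays. Hspa1b had no probe named for it. The deposited annotation of the Hspa1a probe lists transcripts of both genes, so their signals could not be separated.

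The cells were HoxA9-Meis1 AML cells, C57Bl/6 acute myeloid leukaemia cells named for the homeobox factors Hoxa9 and Meis1, isolated from bone marrow and kept in SFEM medium. The A2 cells received 3.4 µM Pyrydopyrazine A2, the RA+D3V cells received all-trans Retinoic Acid (RA) and a 1α-hydroxy form of D3 Vitamin (D3V) at 10 µM each, and the control cells were untreated. All were collected at 24 h. Each condition was measured on 1 one-colour array, so every difference is between single arrays, with no replicate check and no test.

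Cytosolic chaperones of the HSP70 and HSP90 families take up unfolded proteins with the help of J proteins and nucleotide exchange factors, and their genes are the known targets of heat shock factor Hsf1. In the ER, Hspa5 (BiP), Hsp90b1, the lectins calnexin and calreticulin and the disulfide isomerases fold secreted and membrane proteins. When unfolded protein builds up there, the sensors Ern1, Eif2ak3 and Atf6 raise the genes of ER chaperones through Xbp1, Atf4 and Atf6 itself.

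The labels of the treated arrays were in doubt. Over all 62976 spots, the deposited value table's A2 column ranked the spots as the scanner file labelled RA+D3V did (Spearman 1), and its RA+D3V column ranked them as the scanner file labelled A2 did (Spearman 1). The arrays are therefore named by the labels of their scanner files, and with the labels exchanged every direction given for one treatment would belong to the other. Cyp24a1, a known target gene of the vitamin D receptor, was at least 1222-fold higher on the A2-labelled array than on the untreated array, and Cyp26a1, a known target gene of retinoic acid receptors, at least 78.7-fold higher. Neither was well above background on the RA+D3V-labelled array or on the untreated array.

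Of 59305 spots other than controls, 46.6% were well above background on the A2-labelled array, 46.8% on the RA+D3V-labelled array and 46.0% on the untreated array, and none was saturated. All 8 myeloid and AML markers were well above background on every array, with a summed signal of 375 times the array's 75th percentile on the A2-labelled array, 445 on RA+D3V and 907 on untreated. Mpo, the largest part of these sums, had log2 levels of 7.17 on A2, 7.82 on RA+D3V and 9.39 on untreated. Elane and Spi1 were also lower on both treated arrays, Kit, Itgam and Csf1r were higher on both, and Ptprc and Cebpa were lower on A2 alone. Hoxa9 was well above background on all 3 arrays, at 5.53 on A2, 4.72 on RA+D3V and 4.34 on untreated. The Meis1 signal did not stand well above background on any of the 3. The value table's untreated column matched no scanner file and its origin is unknown. It served as another source of untreated values. The SD of this log2 difference was 0.28 over 17015 genes and 0.14 over the 29 chaperones, which lay between -0.21 and 0.40. No other spread between samples is available, and whether this one holds variation between cultures is unknown.

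The gene starts are shown here because the 2 compartments carried different letters in them. Promoter windows of 300 bases (250 before to 50 after the start, RefSeq, GRCm38.p6) were found for 11 heat shock and 15 ER members. The ER stress response element was searched on both strands as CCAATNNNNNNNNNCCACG. A gene counted when any of its windows held the match. The element was in the windows of 7 of the 15 ER members, of 0 of the 11 heat shock members and of 0.137% of all 27025 genes (32851 windows). Capitals mark the match with 12 bases on either side, read along the gene:
Hspa5, chr2:34772013-34772055, plus strand: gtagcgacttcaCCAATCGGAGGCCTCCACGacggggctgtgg
Calr, chr8:84847063-84847105, minus strand: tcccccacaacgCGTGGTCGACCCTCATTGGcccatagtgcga
Canx, chr11:50325788-50325830, minus strand: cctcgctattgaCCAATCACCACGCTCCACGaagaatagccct
Pdia6, chr12:17266479-17266521, plus strand: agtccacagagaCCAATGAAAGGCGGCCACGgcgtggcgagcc
Dnajc3, chr14:118937815-118937857, plus strand: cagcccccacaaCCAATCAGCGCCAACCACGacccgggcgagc
Creld2, chr15:88819508-88819550, plus strand: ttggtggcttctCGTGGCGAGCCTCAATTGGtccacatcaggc
Hsp90b1, chr10:86705521-86705668, minus strand: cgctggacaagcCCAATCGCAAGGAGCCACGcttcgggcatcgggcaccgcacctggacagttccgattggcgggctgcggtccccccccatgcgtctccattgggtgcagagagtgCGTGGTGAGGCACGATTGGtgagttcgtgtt

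Hsp90b1 alone of the 7 held the element at 2 places. The related element ATTGGNCCACG, searched on both strands, was in the windows of Herpud1 and Dnajb11 and of 0.0444% of all genes. The shorter CCAAT, which is part of the first element, was in 14 of 15 ER members, 6 of 11 heat shock members and 41.1% of all genes. A match describes the letters and is not a shown binding site. The Herpud1 match reads:
Herpud1, chr8:94386365-94386399, plus strand: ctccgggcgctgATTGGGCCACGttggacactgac

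The heat shock element was searched on both strands as GAANNTTCNNGAA, 3 units of the core that Hsf1 is known to bind. It was in the windows of 3 of the 11 heat shock members (Hspd1, Hspe1 and Hsph1), of 0 of the 15 ER members, and of 0.662% of all genes. Hspd1 and Hspe1 are neighbours transcribed in opposite directions, and their matches are the same stretch of chromosome 1 read from either side. It holds 2 overlapping matches:
Hspd1, chr1:55088047-55088088, minus strand: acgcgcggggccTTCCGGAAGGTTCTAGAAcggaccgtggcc
Hspe1, chr1:55088047-55088088, plus strand: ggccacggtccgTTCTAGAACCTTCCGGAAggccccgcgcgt

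All levels below are processed signals divided by the 75th percentile of their array, on the log2 scale, from a gene's brightest probe, and differences are between such levels. No measured chaperone reached a 2-fold difference in any comparison: 0 of 29 between the A2-labelled array and untreated (14.4% of 17291 genes did), 0 of 29 between RA+D3V and untreated (12.9% of 17290 genes), and 0 of 29 between A2 and RA+D3V (7.83% of 17640 genes). Hspa1a and Hspb1, 2 of the 31 members on the array, are not among these 29 because they were not well above background on the treated arrays, and by their bounds both were more than 2-fold lower there than on untreated. Among genes whose probe was at least as bright as the dimmest measured chaperone, the shares were 13.3%, 10.3% and 6.65%. This set was added after the values were seen, and its cut, a mean level of -0.34, is a floor and not a match in brightness. The median size of a chaperone's difference, whatever its sign, was 0.24 for A2 against untreated, 0.20 for RA+D3V against untreated and 0.15 for A2 against RA+D3V. Over all genes measured these medians were 0.40, 0.39 and 0.25, and over the genes at least as bright they were 0.38, 0.36 and 0.21. Both treatments are set against the same untreated array, so their differences from it are not independent.

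**Figure D1:**
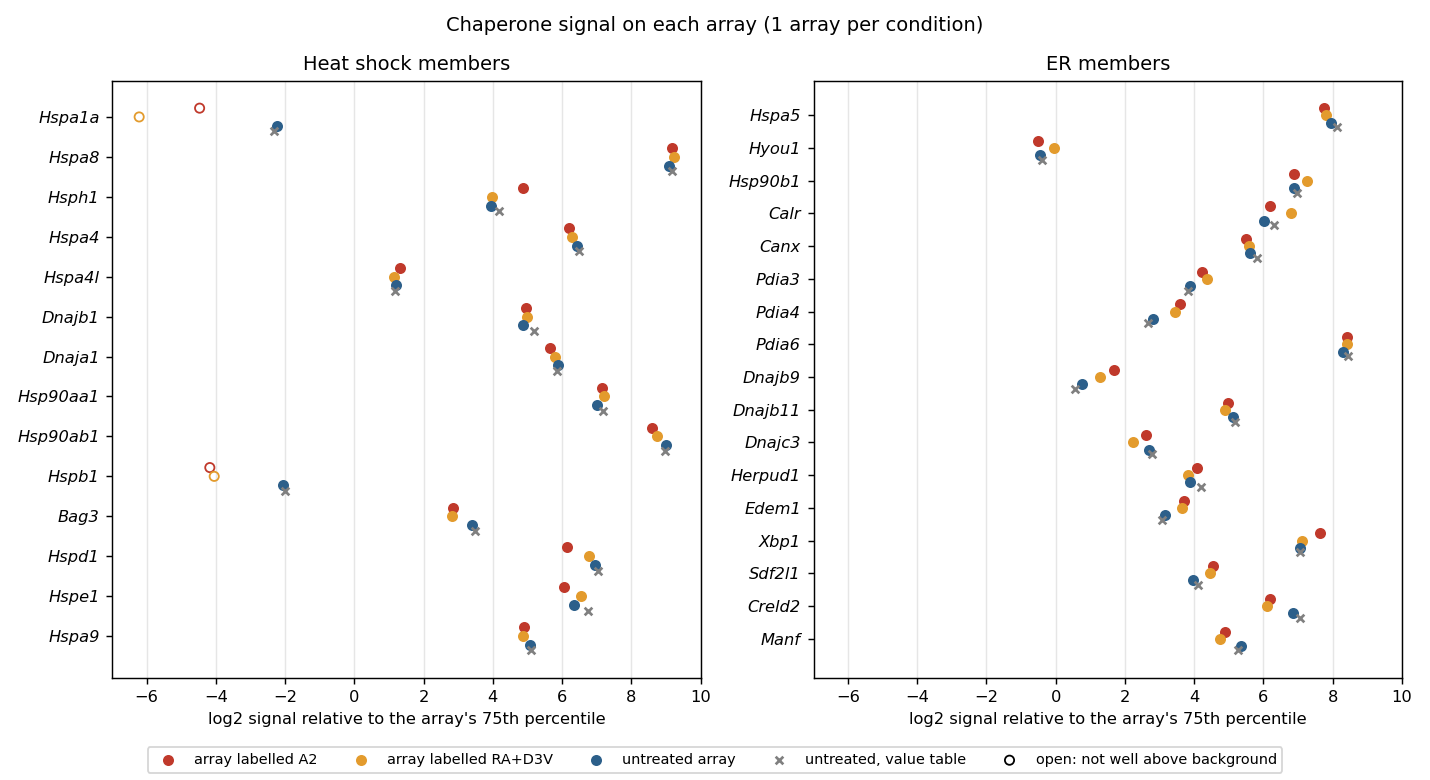
Level of each chaperone (log2 signal relative to the array's 75th percentile, x axis) on the A2-labelled and RA+D3V-labelled arrays, on the untreated array and in the value table's untreated column. Open circles are probes not well above background, which occur for Hspa1a and Hspb1 on both treated arrays alone, and the other 29 genes stay within 2-fold across the 3 arrays.

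The medians of heat shock and ER members lay apart by a small amount, with members of both groups on either side of 0. Above untreated were 5 of 12 heat shock members on each treated array. Of 17 ER members, 9 were above it on A2 and 10 on RA+D3V. Among all genes, 47.8% were on A2 and 48.2% on RA+D3V. The 12 measured heat shock members had a median difference of -0.20 on the A2-labelled array and -0.07 on the RA+D3V-labelled array, both from untreated. The 17 ER members had medians of 0.13 and 0.13, and all genes had -0.03 and -0.03. The heat shock median minus the ER median was thus -0.33 for A2 and -0.19 for RA+D3V. Between the treated arrays (A2 minus RA+D3V) the medians were -0.07 for heat shock members and 0.07 for ER members. Against the value table's untreated column the ER median for A2 turned to -0.10, with -0.21 for the heat shock members, and the ER and heat shock medians for RA+D3V were 0.05 and -0.20. The medians of all genes against that column were -0.12 for A2 and -0.11 for RA+D3V.

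**Figure D2:**
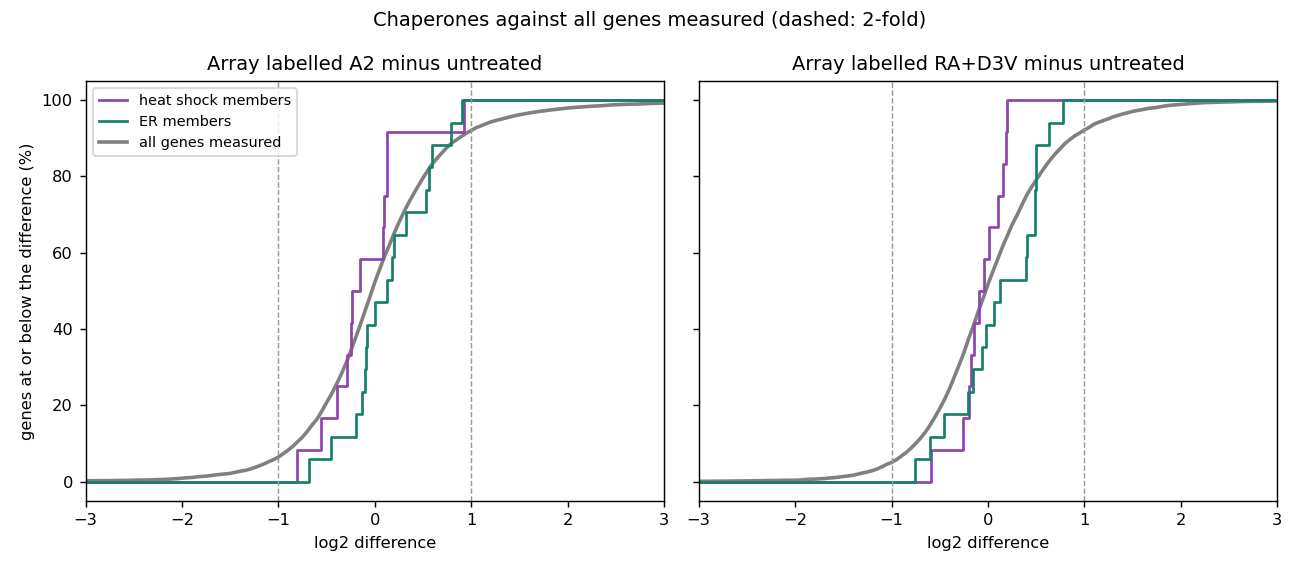
Share of genes (y axis, percent) at or below each log2 difference from untreated (x axis), for heat shock members, ER members and all genes measured, on the A2-labelled (left) and RA+D3V-labelled (right) arrays. The chaperone curves stay inside the dashed 2-fold lines, while 14.4% and 12.9% of all genes lie outside them.

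The inducible genes Hspa1a and Hspb1 were not well above background on either treated array, but were so on the untreated one. The Hspa1a probe reads Hspa1a and Hspa1b, a pair of near-identical genes for the stress-inducible HSP70. It lies on the minus strand of chromosome 17 (mm9) and is shown because it holds the only signal for both genes:
Hspa1a probe, chr17:35107117-35107176, minus strand: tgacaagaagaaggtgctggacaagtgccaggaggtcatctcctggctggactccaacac

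The Hspa1a probe had a level of -4.47 on the A2-labelled array, -6.21 on the RA+D3V-labelled array and -2.23 on the untreated array. Only the untreated signal was well above background, and the value table's untreated column gave -2.33. The bounds were at least 3.91-fold lower on A2 and at least 3.39-fold lower on RA+D3V than on untreated, each set by the lowest signal called well above background on the treated array. Hspb1, the small heat shock protein HSP27 that holds unfolded proteins, had levels of -4.17 on A2, -4.05 on RA+D3V and -2.05 on untreated, again with only the untreated signal well above background. It was at least 4.35-fold lower on A2 and at least 3.82-fold lower on RA+D3V. Such bounds were common: of 948 genes detected on the untreated array and by no probe on A2, 41.9% were at least 2-fold lower by the same rule, and for RA+D3V 29.7% of 947. Each probe has 1 spot per array, and in RNA of a whole culture fewer cells with a transcript and less of it per cell cannot be told apart.

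The other HSP70 genes showed no such gap. Hspa8, the constitutive HSP70, had levels of 9.16 on A2, 9.23 on RA+D3V and 9.07 on untreated, and all 3 lay within 0.16 of each other. The other Hspa8 probes gave 0.31 and 0.03 on A2 and 0.55 and 0.37 on RA+D3V. Hspa4 and Hspa4l belong to the HSP110 family, whose members exchange the nucleotide of HSP70. Hspa4 differed from untreated by -0.25 on A2 and -0.15 on RA+D3V, and Hspa4l by 0.12 and -0.04.

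Hsph1 (HSP110) was the heat shock member with the largest increase on the A2-labelled array among those measured. Its level was 4.87 on A2, 3.96 on RA+D3V and 3.95 on untreated, so A2 stood apart and RA+D3V differed from untreated by 0.01. The A2 difference was 0.92 from untreated and 0.91 from RA+D3V, against a gap of 0.22 between the untreated sources. A dimmer probe of the gene gave 1.13 for A2 and 0.23 for RA+D3V, so that on this probe A2 passed 2-fold. Its heat shock element lies within the first 50 transcribed bases and is not printed.

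The J proteins that hand clients to HSP70 moved little. Dnajb1 differed from untreated by 0.10 on A2 and 0.11 on RA+D3V, both smaller than the gap of 0.30 between the untreated sources. Dnaja1 differed by -0.24 on A2 and -0.09 on RA+D3V, but its dimmer probe gave 0.11 and -0.31, so its direction on A2 depended on the probe. The dimmer probe was weak, at -2.99 on A2, -3.41 on RA+D3V and -3.11 on untreated. The lowest signals called well above background were -4.19, -3.99 and -4.19 in the same order.

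The HSP90 pair completes the folding of kinases and steroid receptors. Hsp90aa1, the inducible form, had levels of 7.15 on A2, 7.21 on RA+D3V and 7.01 on untreated. The value table's untreated column gave 7.19 for it, from which A2 differed by -0.04 and RA+D3V by 0.02, so its higher level did not hold against that column. Hsp90ab1, the constitutive form, had 8.60 on A2, 8.73 on RA+D3V and 8.99 on untreated. Hsp90ab1 was thus lower on both treated arrays, with differences of -0.39 and -0.26, against a gap of -0.03 between the untreated sources.

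Bag3, an HSP70 cochaperone that routes clients to autophagy, was lower on both treated arrays. Its levels were 2.84 on A2, 2.81 on RA+D3V and 3.40 on untreated, with 3.49 in the value table's untreated column. The differences were -0.56 and -0.59. Only the RA+D3V difference reached 1.5-fold.

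The mitochondrial chaperonin pair, Hspd1 (HSP60) and its lid Hspe1 (HSP10), was lowest on the A2-labelled array. Hspd1 had levels of 6.15 on A2, 6.78 on RA+D3V and 6.96 on untreated, which gave -0.81 for A2 and -0.17 for RA+D3V. Hspe1 had levels of 6.05 on A2, 6.53 on RA+D3V and 6.34 on untreated, so that A2 lay below untreated and RA+D3V above it. Between the treated arrays both were lower on A2, with differences (A2 minus RA+D3V) of -0.64 for Hspd1 and -0.48 for Hspe1. All 3 Hspe1 probes gave a negative A2 difference, between -0.27 and -0.37, but the untreated sources differed by 0.40 at the brightest. These genes share the start region with the heat shock element printed above. Hspa9, the mitochondrial HSP70, differed from untreated by -0.16 on A2 and -0.19 on RA+D3V.

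**Figure D3:**
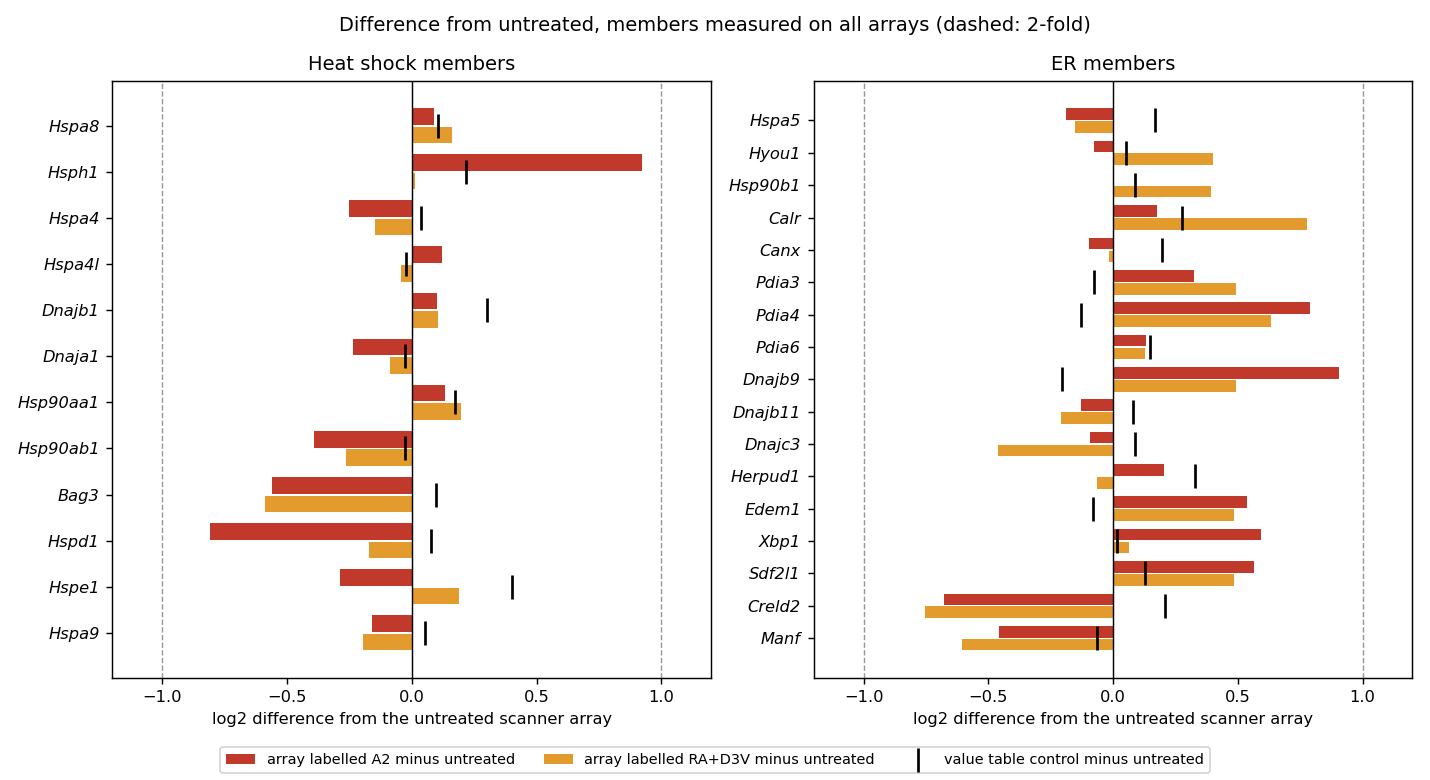
Log2 difference from the untreated scanner array (x axis) for the 12 heat shock and 17 ER members measured on all arrays, with the A2-labelled array above RA+D3V in each pair of bars. Vertical ticks give the value table's untreated column minus the untreated array, and the dashed 2-fold lines are not reached.

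At a lower threshold of 1.5-fold, 6 of the 29 measured chaperones differed between A2 and untreated (34.2% of all genes did) and 5 of 29 between RA+D3V and untreated (33.1%). Between A2 and RA+D3V it was 3 of 29 (20.1%). On A2 the higher ones were Hsph1, Pdia4, Dnajb9 and Xbp1 and the lower ones Hspd1 and Creld2. On RA+D3V the higher ones were Calr and Pdia4 and the lower ones Bag3, Creld2 and Manf. Between the treated arrays Hsph1 was higher on A2, and Hspd1 and Calr were lower on it. Against the value table's untreated column, Xbp1 on A2 (0.58) and Calr (0.50) and Manf (-0.54) on RA+D3V no longer reached 1.5-fold. The signs are no check here. The gaps between the untreated sources, from -0.21 to 0.40, were too small to turn any difference past 1.5-fold.

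The central ER chaperones stayed close to untreated on the A2-labelled array. Hspa5, the HSP70 of the ER and the classical marker of ER stress, had levels of 7.75 on A2, 7.79 on RA+D3V and 7.95 on untreated, with 8.11 in the value table's untreated column. Both treated arrays lay below both untreated values. Hsp90b1, the HSP90 of the ER, had levels of 6.88 on A2, 7.27 on RA+D3V and 6.88 on untreated. Hyou1, a nucleotide exchange factor for Hspa5, had -0.52 on A2, -0.04 on RA+D3V and -0.45 on untreated. For Hsp90b1 and Hyou1 the RA+D3V-labelled array was the high one, by 0.39 and 0.40 above untreated.

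Calr (calreticulin) also stood higher on RA+D3V, whereas the membrane-bound Canx (calnexin) did not. Both are lectins that hold glycoproteins during folding. Calr had levels of 6.20 on A2, 6.80 on RA+D3V and 6.03 on untreated, which gave 0.18 for A2 and 0.78 for RA+D3V. The value table's untreated column gave 6.30 for Calr, above the A2 level and below the RA+D3V level. Canx differed from untreated by -0.10 on A2 and -0.02 on RA+D3V.

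The 3 disulfide isomerases among the members, which form and reshuffle disulfide bonds, were above the untreated array on both treated arrays. Pdia4 had levels of 3.59 on A2, 3.43 on RA+D3V and 2.80 on untreated, and both differences, 0.79 and 0.63, were larger than the gap of -0.13 between the untreated sources. Pdia3, the partner of the lectins, had 4.21 on A2, 4.38 on RA+D3V and 3.89 on untreated. Pdia6 differed by 0.13 on both treated arrays, less than the gap of 0.15 between the untreated sources, and by -0.02 on both from the value table's untreated column. A dimmer Pdia6 probe gave -0.04 and -0.40.

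Among the ER J proteins, which set Hspa5 to work, Dnajb9 differed most. Dnajb9 (ERdj4) had levels of 1.68 on A2, 1.27 on RA+D3V and 0.78 on untreated. Both treated arrays were above untreated, by 0.90 and 0.49, and above the 0.57 of the value table's untreated column. Its dimmer probe gave 1.38 and 1.47, past 2-fold on both arrays. That probe was weak, at -1.91 on A2, -1.81 on RA+D3V and -3.28 on untreated. The lowest signal called well above background on untreated was -4.19. Dnajb11 differed by -0.13 on A2 and -0.21 on RA+D3V. Dnajc3 (P58IPK), which also inhibits eIF2α kinases, differed by -0.09 on A2 and -0.46 on RA+D3V.

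**Figure D4:**
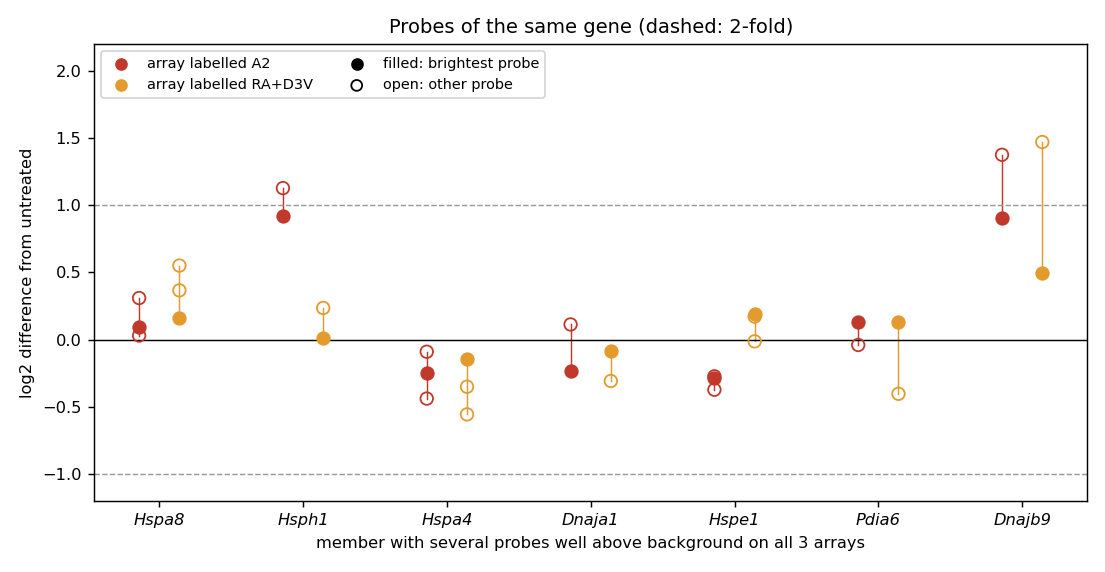
Log2 difference from untreated (y axis) for each probe of the 7 members with several probes well above background, on the A2-labelled and RA+D3V-labelled arrays, with the brightest probe filled. Probes of 1 gene spread by a median of 0.28 for A2 and 0.39 for RA+D3V, most for Dnajb9, by 0.47 and 0.98. The dimmer Dnajb9 probe had a level of -3.28 on untreated.

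Of the 3 genes of ER-associated degradation and its regulation, Xbp1 differed most between the treated arrays. Xbp1, the transcription factor made active when Ern1 splices its mRNA, had levels of 7.64 on A2, 7.11 on RA+D3V and 7.05 on untreated, so that only A2 stood apart, by 0.59 from untreated and 0.53 from RA+D3V. A single 60-base probe does not give the share of spliced mRNA. Edem1, a lectin that sends misfolded glycoproteins to degradation, had 3.70 on A2, 3.64 on RA+D3V and 3.16 on untreated, with both treated arrays high. Herpud1, a scaffold of the degradation complex, differed by 0.20 on A2 and -0.06 on RA+D3V, both smaller than the gap of 0.33 between the untreated sources.

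The soluble ER stress proteins went in opposite directions. Sdf2l1, which works with Hspa5 and its J proteins, had levels of 4.54 on A2, 4.46 on RA+D3V and 3.97 on untreated. Manf, a secreted protein induced by ER stress, had 4.88 on A2, 4.74 on RA+D3V and 5.34 on untreated. Sdf2l1 was thus higher on both treated arrays, by 0.56 and 0.49, and Manf was lower, with differences of -0.46 and -0.60.

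Creld2, another secreted ER stress protein, was the one chaperone with 10 spots on each array. Its level was 6.18 ± 0.02 on A2, 6.11 ± 0.04 on RA+D3V and 6.86 ± 0.06 on untreated (SD over 10 spots of the same RNA, n = 1 array each). The highest spot was at 6.22 on A2 and 6.20 on RA+D3V, and the lowest on untreated at 6.78, so the spots did not overlap. The differences were -0.68 and -0.75. The spot SDs cover the measurement on an array and not the spread between cultures, and the value table's untreated column gave 7.07.

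The ER members with a promoter window were also grouped by whether it holds the ER stress element. The 7 ER members that hold it had a median difference of -0.09 on A2 and -0.02 on RA+D3V. The 8 ER members with a window and without it had 0.55 and 0.48, and 7 of 8 on A2 and 6 of 8 on RA+D3V were above 0 (47.8% and 48.2% of all genes were). Of the 30 other genes with the element, 12 were measured, with medians of -0.03 and -0.14. The groups overlapped, since Calr, which holds the element, had 0.78 on RA+D3V and Dnajb11, which does not, had -0.21. Herpud1 and Dnajb11, which hold the related element, are among the 8, and Manf and Hyou1 had no window. The split was looked at after the values were known, holds few genes and was not tested. The 46 measured genes outside the list with the heat shock element had medians of -0.17 on A2 and -0.13 on RA+D3V.

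The wider folding network was read from 9 further gene lists. The upstream factors did not move as one. Of 13 unfolded protein response sensors and factors, 0 were at least 2-fold higher and 1 lower on A2 (7.94% and 6.47% of all genes), and 1 was higher and 3 lower on RA+D3V (7.82% and 5.04%). Atf4, the factor translated after eIF2α is phosphorylated, had levels of 8.01 on A2, 7.43 on RA+D3V and 8.52 on untreated. Chac1, a known Atf4 target, had 1.49 on A2, 1.06 on RA+D3V and 2.30 on untreated. Both were lowest on RA+D3V, with differences from untreated of -1.09 for Atf4 and -1.24 for Chac1. Ern1, the sensor that splices Xbp1, was higher by 0.77 on A2 and 0.83 on RA+D3V, and by 0.40 and 0.45 against the value table's untreated column. Mbtps2, a protease that releases Atf6, was higher by 0.80 and 1.30, and by 0.04 and 0.53 against that column. Atf6 had differences of -1.87 and -1.30, but its probe holds an alternating G and T run of 8 bases, and leaving out every probe with such a run brought the genes at least 2-fold lower on A2 to 982, against 1118 with them. Hsf1, the master factor of heat shock genes, had levels of 1.48 on A2, 1.68 on RA+D3V and 2.39 on untreated, with differences of -0.92 and -0.71.

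Every listed gene of the cytosolic chaperonin lay below the untreated array on both treated arrays, and prefoldin genes lay on either side. CCT, the ring that folds actin and tubulin, and prefoldin, which delivers them, had 14 of 14 genes measured. Of these, 12 lay below untreated on A2 and 11 on RA+D3V. Among all genes, 9030 of 17291 did on A2 and 8950 of 17290 on RA+D3V. The genes of the list above untreated were all of prefoldin: Pfdn1 and Pfdn6 on A2, and Pfdn2, Pfdn5 and Pfdn6 on RA+D3V. The CCT and prefoldin medians were -0.52 and -0.43, against -0.03 and -0.03 for all genes. In either comparison 0 of 14 reached 2-fold, where 14.4% and 12.9% of all genes did. Cct6a had differences of -0.94 on A2 and -0.71 on RA+D3V, but of -0.51 and -0.27 against the value table's untreated column.

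Cochaperones of HSP70 and HSP90 gave medians of -0.19 on A2 and -0.10 on RA+D3V over 22 genes. Hspbp1, a nucleotide exchange factor of HSP70, was the only one of them at least 2-fold away from untreated on A2. None was on RA+D3V. Of all genes, 14.4% were that far away on A2 and 12.9% on RA+D3V. Hspbp1 had levels of 4.22 on A2, 2.25 on RA+D3V and 3.17 on untreated. The treated arrays thus lay on opposite sides of the untreated one and 1.97 apart. The untreated value was 3.17 in the value table also.

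In the lists of ER degradation, folding and translocation the medians lay between -0.18 and 0.01. The ER members had 0.13 on both treated arrays, and all genes had -0.03. The 18 genes of ER-associated degradation had 0.01 on A2 and -0.03 on RA+D3V. None of them was at least 2-fold away on either array, where 14.4% and 12.9% of all genes were. ER folding enzymes gave 0.00 over 27 genes on A2 and -0.13 over 26 on RA+D3V. Among them the oxidase Ero1a, which recharges the disulfide isomerases, was higher by 0.80 and 1.18, and the isomerase Pdia5 was lower, with differences of -1.28 and -0.74. The 23 genes of translocation and glycosylation had medians of -0.11 and -0.18. The 10 mitochondrial chaperones and proteases had -0.17 and -0.29, and the 5 measured of the other HSP70 and small heat shock genes had -0.33 and -0.45.

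**Figure D5:**
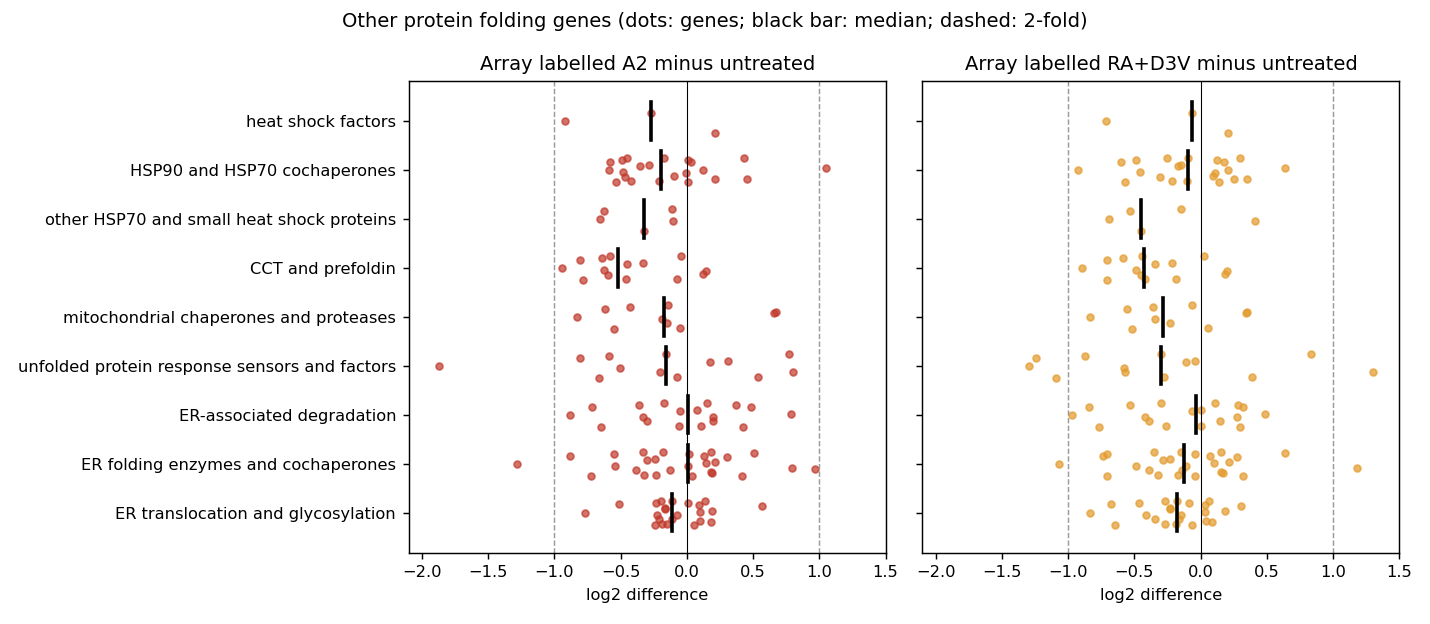
Log2 difference from untreated (x axis) of each measured gene of the 9 further lists, on the A2-labelled (left) and RA+D3V-labelled (right) arrays, with the list's median as a black bar. The CCT and prefoldin medians, -0.52 and -0.43, are left of the other bars except that of other HSP70 and small heat shock proteins on RA+D3V, at -0.45.

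Markers of other cell types differed between the arrays, with signals summed over all markers of a list, those at background included. Plasma cells are rich in ER chaperones, and of 6 plasma cell markers 5 were well above background on A2, 4 on RA+D3V and 4 on untreated, with summed signals of 13.7, 13.0 and 11.7 times the array's 75th percentile. Tnfrsf17 was at background on all 3 arrays. Sdc1 was well above background on A2 alone, at least 5.04-fold higher than on untreated, and Irf4 differed from untreated by 0.40 on A2 and 0.90 on RA+D3V. Igj, the largest part of these sums, differed by 0.27 and 0.30, Mzb1 by 0.04 and -0.35, and Prdm1 by -0.09 and 0.12.

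Of the 5 B cell markers 4 were detected on each array, with sums of 18.6 on A2, 12.5 on RA+D3V and 18.9 on untreated, and Pax5 was at background on all. Of the 6 T and NK cell markers 4 were detected on A2, 3 on RA+D3V and 5 on untreated, with sums of 4.53, 4.61 and 6.99, and Ncr1 was at background on all. Cd3e, the largest part of these sums, differed from untreated by -0.25 and -0.23, but Cd3d by -1.86 and -1.55, Cd2 by -1.81 and -1.89, and Gzma by -2.09 on A2. Among erythroid genes Hbb-b1 differed by -1.06 and -1.10, Hba-a1 by -0.75 and -0.70, and Car2 by -1.72 on A2. Of the 4 megakaryocyte markers 2 were detected on A2, 2 on RA+D3V and 1 on untreated, with sums of 16.4, 21.8 and 0.504. These were Pf4 and, on the treated arrays, Ppbp, whereas Itga2b and Gp9 were at background on all. Of the 5 stromal markers 2, 1 and 1 were detected in the same order, with sums of 0.443, 0.245 and 0.190. Myeloid markers moved too: Mpo was lower, with differences of -2.22 on A2 and -1.57 on RA+D3V, and Itgam was higher by 2.37 and 2.31. The part of these shifts in the chaperone differences was not tested.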

How the data were processed

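RNA of 3 cultures was read on 1 one-colour Agilent array each. Intensity per spot was taken from the deposited scanner output of Agilent Feature Extraction 11.5.1.1. Per the file headers it was already corrected for background and spatial trend but not scaled between arrays. The deposited value table holds intensity on a linear scale, quantile normalized as judged from its sorted values. The flags for background, saturation and unevenness are those of the authors' scanner software. Probe positions are mm9.

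From these, log2 processed signal minus the array's 75th percentile was computed, spots of a probe were averaged without uneven or outlier spots, and the brightest probe was taken per gene. A gene counted as measured where it was well above background on both arrays compared. The fold threshold was 2, with 1.5 beside it. All 32 members were described, and up to 3 highest and 3 lowest genes of each further list could be named. The members and lists were chosen with earlier results of these data known, and the roles by which the members are ordered, and the genes named as label checks, after their values were seen. Promoters and gene symbols came from RefSeq tables. Python 3.11.15, pandas 2.3.3, R 4.3.3 and limma 3.58.1 (normexp, quantile) were used. The steps were tested on simulated data. The number of arrays, 1 per condition, limits the precision. One marker gene, and the sums of its list, are not reported here.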

Additional observations from a re-analysis of the deposited data

How the results depend on the processing

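With 1 array per condition no replicate could be left out, and no paired analysis was possible because no group had a numbered replicate pair. The alternatives were normexp with an offset of 50, quantile normalization, scaling to the median of detected probes, the mean over a gene's probes, detection on all 3 arrays, no background filter, leaving out probes with G and T runs, and the value table's untreated column. The heat shock median lay below the ER median under every one, from -0.37 to -0.11 for A2 minus untreated, from -0.25 to -0.17 for RA+D3V minus untreated and from -0.14 to -0.07 for A2 minus RA+D3V. With the mean over probes, 1 heat shock member (Hsph1) and 1 ER member (Dnajb9) were at least 2-fold higher on A2 than untreated, and the heat shock median of A2 minus RA+D3V turned to 0.012. Without the background filter, 2 heat shock members (Hspa1a and Hspb1) were at least 2-fold lower on A2 and 2 on RA+D3V than untreated, and 1 (Hspa1a) was higher on A2 than on RA+D3V, where neither signal was well above background. Against the value table's untreated column the ER median of A2 turned to -0.10 and 1 ER member (Dnajb9) was at least 2-fold higher. The median of all genes there was -0.12 for A2 and -0.11 for RA+D3V, and without the filter 0.19 for RA+D3V and -0.18 for A2 minus RA+D3V. Of the genes at least 2-fold apart between A2 and RA+D3V, 48.3% were higher on A2, 59.6% with normexp and 37.8% without the filter. Single members moved by more than the control spread in 1 case with the mean over probes (Dnajb9 on RA+D3V, 0.98) and in 6 with the other untreated column (Dnajb1, Hspe1 and Herpud1 on both). Those 6 follow from the gaps between the untreated sources (0.30, 0.40 and 0.33), each of which shifts both treated differences alike. The control spread is the SD of that same gap over all genes, so they are no separate check. Why the Dnajb9 probes differed was not tested. Of 44 member probes, 39 were well above background on all 3 arrays.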
